A study of Mus musculus with 6 samples.

Results

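The 6 Iroquois genes of the mouse, Irx1 to Irx6, lie in 2 clusters of 3 genes, with Irx1, Irx2 and Irx4 on chromosome 13 and Irx3, Irx5 and Irx6 on chromosome 8. They were chosen by name from the 21755 protein-coding genes of the GENCODE vM21 annotation. Each cluster was taken from its first to its last gene with 100 kb on either side, and the introns of Fto, the gene next to Irx3, were added. The chromosome 13 window ran over 1512 kb (chr13:71857921-73369608) and the chromosome 8 window over 1082 kb (chr8:91698525-92780956), both in GRCm38. Merging the peaks of the 3 samples where they overlapped by at least 1 bp gave 46 regions there, of 19251 in the genome. Of these, 6 lay in the chromosome 13 window, 18 in the chromosome 8 window and 22 in Fto.

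The peaks marked monomethylation of lysine 4 of histone H3 (H3K4me1) in whisker pads of wild-type mouse embryos at embryonic day 12, of the strain labelled B6/J2. The pads were dissociated to single cells and profiled by CUT&Tag, in which an antibody brings a transposase to the mark and the DNA cut there is sequenced. There were 3 samples with an H3K4me1 antibody, called replicates 1, 2 and 3 after their pad numbers, and 3 samples with control IgG that were not analysed here. No condition was varied, so the comparison drawn here was between the clusters within each sample, and no background measured with IgG stands beside any value. Whether the pads came from different embryos is not given in the sources used here, so the spread between replicates may be partly technical. A pad holds several cell types, and more cells carrying the mark cannot be told apart from more mark per cell.

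The source name of 4 samples, H3K4me1 replicates 2 and 3 among them, was adult kidney, whereas every title gave whisker pad. The titles were used. Lists of marker genes, chosen with earlier results of these data known, were then checked, so the counts cannot settle which label is right. A gene was counted when a peak lay over its body or within 5 kb of it. Such a peak lay at 24.9% of protein-coding genes in replicate 1, at 22.6% in replicate 2 and at 19.6% in replicate 3. Of 10 facial mesenchyme markers, 10, 9 and 10 had one in replicates 1, 2 and 3, and of 10 surface ectoderm markers 6, 6 and 4 did. Of 12 adult kidney markers, 3, 3 and 1 had a peak. Slc12a1, the salt transporter of the loop of Henle, had one in all 3 replicates, and Aqp2 and Pax2 had one in replicates 1 and 2. The replicates with the kidney source name therefore had no more marked kidney genes than replicate 1, whose label named the pad throughout. Several Iroquois genes are active in the nephron, so values are given by replicate throughout, and those of replicate 1 stand for the data without the doubtful labels. The lists held 16788, 12969 and 13998 peaks and covered 2.47%, 2.32% and 2.23% of chromosomes 1 to 19 and X.

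Iroquois proteins are homeodomain transcription factors of the TALE class, which also holds the Meis, Pbx, Pknox, Tgif and Mkx proteins. They pattern the neural plate, heart, limb and other embryonic tissues. The clusters arose by duplication, so that Irx1 and Irx3, Irx2 and Irx5, and Irx4 and Irx6 are taken as counterparts. Both clusters sit in long stretches with few other protein-coding genes, where distant enhancers are shared among the members. The introns of Fto, an RNA demethylase gene, are known to hold regulatory DNA that contacts Irx3. H3K4me1 is found at active and poised enhancers and on the flanks of active promoters.

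The regions with the strongest signal are shown by the 200 bp around their point of highest pileup in replicate 1, from GRCm38, plus strand, 5′ to 3′, with the bases at that highest pileup in capitals. They are the 3 strongest regions found in all replicates of each cluster, by their mean percentile of signal, and the region of Fto that was highest by the same measure. Neighbours in this order often lay within the spread between replicates. On chromosome 13 they lay just beyond the 3′ end of Irx1 (chr13:71956952-71957151), far upstream of Irx2 (chr13:72426601-72426800) and downstream of Irx2 (chr13:72638797-72638996), all outside annotated genes:
Irx1 3′ side: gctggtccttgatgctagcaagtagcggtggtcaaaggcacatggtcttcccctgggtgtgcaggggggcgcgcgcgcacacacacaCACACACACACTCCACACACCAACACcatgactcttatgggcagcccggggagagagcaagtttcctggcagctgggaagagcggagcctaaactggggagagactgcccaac
Irx1-Irx2 interval: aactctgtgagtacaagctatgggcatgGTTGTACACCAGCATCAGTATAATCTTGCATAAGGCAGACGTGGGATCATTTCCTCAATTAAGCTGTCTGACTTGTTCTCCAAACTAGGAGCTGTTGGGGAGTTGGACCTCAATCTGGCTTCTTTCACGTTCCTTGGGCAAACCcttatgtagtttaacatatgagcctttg
Irx2 3′ side: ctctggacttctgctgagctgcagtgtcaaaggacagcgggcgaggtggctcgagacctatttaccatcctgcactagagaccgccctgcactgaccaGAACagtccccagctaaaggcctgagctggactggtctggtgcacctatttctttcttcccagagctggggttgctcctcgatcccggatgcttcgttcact
On chromosome 8 they lay in an exon of Irx3os, the noncoding antisense neighbour of Irx3 (chr8:91806580-91806779), in an intron of Irx5 (chr8:92365274-92365473) and between Fto and Irx3 (chr8:91749614-91749813), and the Fto stretch was in the first intron (chr8:91376895-91377094):
Irx3os exon: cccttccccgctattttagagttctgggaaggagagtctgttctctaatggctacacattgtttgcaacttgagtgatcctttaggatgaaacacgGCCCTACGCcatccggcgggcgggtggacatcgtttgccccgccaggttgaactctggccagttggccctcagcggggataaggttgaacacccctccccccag
Irx5 intron: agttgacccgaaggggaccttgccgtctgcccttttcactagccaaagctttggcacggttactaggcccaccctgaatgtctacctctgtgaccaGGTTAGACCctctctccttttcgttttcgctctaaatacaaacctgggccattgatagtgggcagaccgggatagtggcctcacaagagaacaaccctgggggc
Fto-Irx3 interval: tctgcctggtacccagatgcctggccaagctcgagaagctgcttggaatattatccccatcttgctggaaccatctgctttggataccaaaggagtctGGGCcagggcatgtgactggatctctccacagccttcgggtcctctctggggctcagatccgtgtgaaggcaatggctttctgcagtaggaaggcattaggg
Fto first intron: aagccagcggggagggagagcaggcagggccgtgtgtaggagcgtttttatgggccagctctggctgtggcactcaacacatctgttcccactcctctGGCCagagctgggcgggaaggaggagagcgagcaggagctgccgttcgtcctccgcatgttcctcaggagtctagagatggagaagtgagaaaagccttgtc
The capitals of the first stretch fall in a run of CA repeats, and those of the last coincided in replicates 1 and 2 to the base. In replicates 2 and 3 the pileup of the first region was highest inside the Irx1 body, from chr13:71959475 and chr13:71959163. The replicate 2 peak began at chr13:71958496 and did not reach the stretch shown. In the last region the pileup of replicate 3 was highest outside its stretch, at chr8:91376376. The Irx3os exon and Fto-Irx3 interval stretches held the highest point of replicate 1 only. The Irx1-Irx2 interval and Irx5 intron stretches did not hold that of replicate 2.

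The chromosome 8 cluster carried more H3K4me1 than the chromosome 13 cluster in each replicate, by every measure taken. Peaks covered 7.08%, 7.06% and 7.12% of the chromosome 8 window in replicates 1, 2 and 3, which averaged 7.08% ± 0.0298 (SD, n = 3). They covered 1.02%, 0.761% and 0.747% of the chromosome 13 window, a mean of 0.842% ± 0.153 (SD, n = 3). No chromosome 13 value came near a chromosome 8 value, and replicate 1 alone had the same order. The difference, chromosome 8 minus chromosome 13, was 6.24 percentage points ± 0.163 (SD, n = 3), with an exact two-sided sign-flip permutation p = 0.25, which is the smallest that 3 replicates allow. The ratio of the coverages was 6.95, 9.27 and 9.52, a mean of 8.58 ± 1.42 (SD, n = 3). Against the coverage of the genome, the chromosome 8 window stood at 3.03 times and the chromosome 13 window at 0.358 times on average. The former thus lay above the genome and the latter below it in all 3 replicates.

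The same order held for the number and the strength of the peaks. The chromosome 8 window held 18, 15 and 18 peaks and the chromosome 13 window 5, 4 and 4, or 15.7 ± 1.60 against 2.87 ± 0.382 per Mb (SD, n = 3), where the genome had 5.70 ± 0.771. Strength is given as the percentile of a peak's total signal, the fragment pileup summed over its bases, among all peaks of its replicate. A merged region takes the percentile of its strongest peak in each replicate. The median percentile on chromosome 8 was 66.2, 54.3 and 63.1 and on chromosome 13 it was 43.7, 31.6 and 5.32. The chromosome 13 median was thus the lower one in each replicate, and it varied more, with a SD of 19.6 against 6.20 (n = 3). It rested on only 5, 4 and 4 peaks, against 18, 15 and 18 on chromosome 8. Only 1 chromosome 13 peak of any replicate reached the 50th percentile, the one at Irx1 in replicate 1, whereas 14, 9 and 14 chromosome 8 peaks did. Per Mb, the chromosome 8 peaks held 0.105% ± 0.0076 of the signal in all peaks and the chromosome 13 peaks 0.00866% ± 0.00107 (SD, n = 3). For peak number, signal share and median percentile the exact sign-flip p was again 0.25. The windows were alike in makeup, with 44.3% GC and 23.5% repeat-masked bases on chromosome 13, 45.9% and 20.8% on chromosome 8, and 0 unsequenced bases in both. The part of these small differences in the result was not tested.

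**Figure D1:**
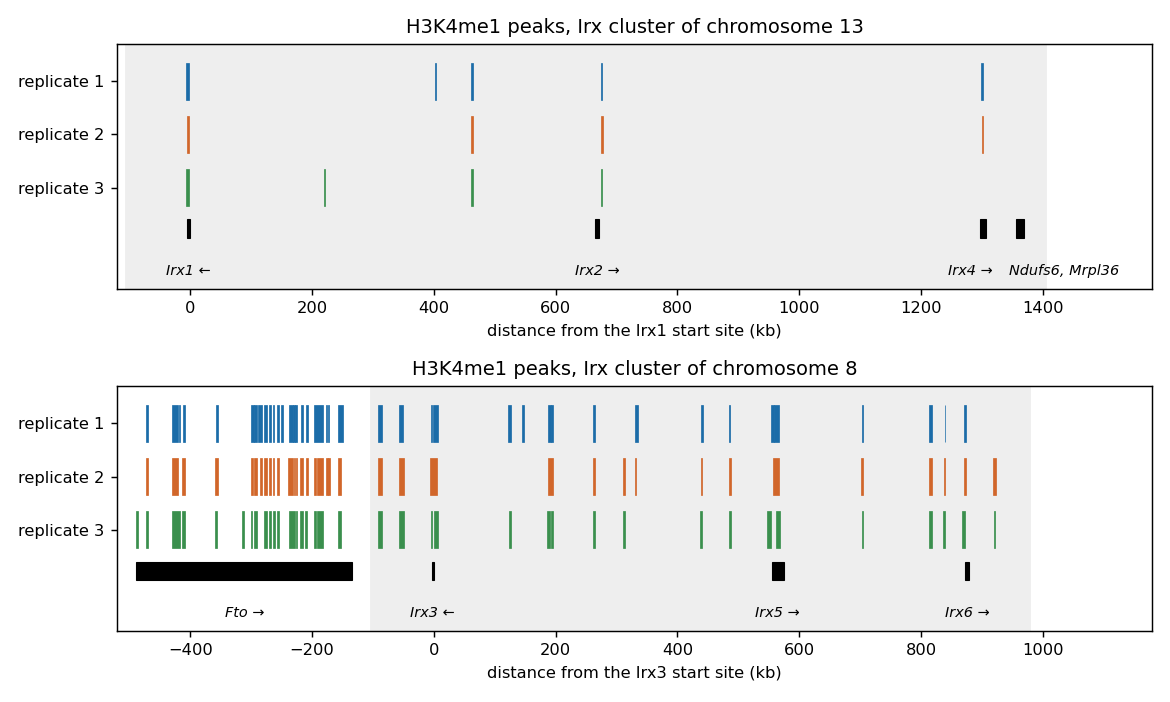
H3K4me1 peaks of each replicate (coloured bars) along the chromosome 13 cluster (top) and the chromosome 8 cluster with Fto (bottom), in kb from the start site of Irx1 and of Irx3, at the same scale. Black boxes are protein-coding genes with arrows for their direction, and grey marks the windows. The chromosome 13 window holds 4 or 5 peaks per replicate and the chromosome 8 window 15 to 18, with 19 to 22 more in Fto.

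**Figure D2:**
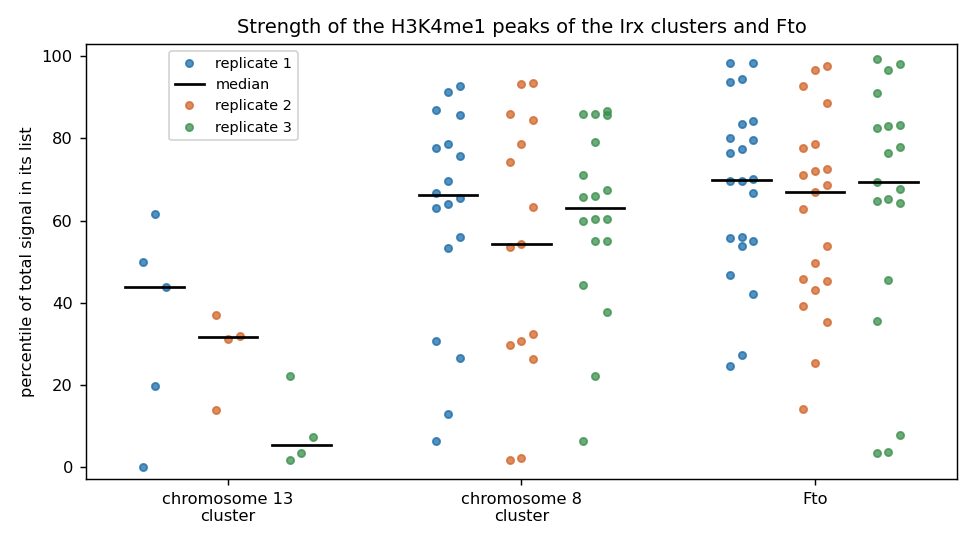
Percentile of the total signal of every peak (points) among all peaks of its replicate, for both clusters and Fto, with black lines at the medians. The chromosome 13 medians lie between 5.32 and 43.7, those of chromosome 8 between 54.3 and 66.2 and those of Fto between 66.9 and 69.9.

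Of the chromosome 13 regions 3 of 6 had a peak in all replicates, of the chromosome 8 regions 12 of 18 and of the Fto regions 16 of 22, where 46.3% of all merged regions did. Irx1 and Irx2 are both active in the developing lung and limb. The chromosome 13 region with the highest mean percentile among those found in all replicates overlapped the body of Irx1 and ran past its 3′ end (chr13:71956105-71961436). It stood at the percentiles 61.6, 31.2 and 22.2, with total signals of 35095, 33867 and 24105. Its peaks came no closer to the Irx1 start site than 2.55, 2.29 and 2.76 kb, all on the downstream side, so that the start itself was free of peaks. The next region lay 201 kb upstream of Irx2, in the interval between Irx1 and Irx2 (chr13:72425070-72428026), at the percentiles 43.7, 14.0 and 3.35. The region closest to Irx2 (chr13:72637703-72640861) began 8.88, 9.17 and 9.59 kb downstream of its start, beyond its 3′ end, at the percentiles 19.9, 32.0 and 1.64. The Irx2 body itself held 0% in all 3 replicates. Gm20554, a noncoding RNA gene that starts beside Irx2 on the other strand, had no peak over its body either. All 3 stood lowest in replicate 3.

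The lists keep only the top 1% of signal blocks, so a stretch without a peak may still carry the mark. Irx4, a gene known for its role in the ventricles of the heart, had a peak in 2 of the 3 replicates. A region over its body (chr13:73261905-73266101) stood at the percentiles 49.8 and 37.0 in replicates 1 and 2 and covered 44.8% and 32.6% of the gene. In replicate 3 the body had no peak, and the nearest one lay 207 kb away. The last chromosome 13 regions were found once each, at the percentile 7.29 in replicate 3 (chr13:72183086-72185612) and at 0.0477 in replicate 1 (chr13:72364925-72366711). The latter had a total signal of 14270, against 14265 for the weakest peak of that replicate.

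Long stretches of the chromosome 13 cluster had no peak in any replicate. The longest ran from the region downstream of Irx2 to the one at Irx4 (chr13:72640862-73261904), over 621 kb, or 47.3% of the span from Irx1 to Irx4. It had 0 unsequenced bases, 44.4% GC and 24.2% repeat-masked bases. In the chromosome 8 cluster the longest such stretch lay between Irx5 and Irx6 (chr8:92370750-92504026) and ran over 133 kb, or 15.1% of its span. Ndufs6 and Mrpl36, genes of the mitochondrial respiratory chain and ribosome that share the chromosome 13 window, had no peak over the body or within 5 kb in any replicate.

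On chromosome 8 the start sites of Irx3, which acts in the patterning of the neural tube and limb bud, and Irx6 lay within 1 kb of a peak in all 3 replicates, which makes 2 of the 6 Iroquois genes, where 4.04% of protein-coding genes had such a peak. A region over the Irx3 start and Irx3os (chr8:91796291-91808312) stood at the percentiles 92.7, 93.3 and 86.0. Its mean of 90.7 was within the spread of the mean of 90.6 at Irx5, which was the higher of the pair in replicates 2 and 3. It covered 89.0%, 100% and 42.9% of the Irx3 body, so that replicate 3 had the least. Its points of highest pileup lay apart, over 9179 bp, within a region of 12022 bp.

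Irx5 is known for its roles in retinal bipolar cells and in the repolarization of the heart. The region there reached over its start and that of Crnde, the noncoding RNA gene transcribed away from it (chr8:92355837-92370749). It measured 14913 bp, and its strongest peaks, which lay inside the Irx5 body, stood at the percentiles 91.4, 93.5 and 86.7. The points of highest pileup of the 3 replicates fell within 152 bp of each other, inside the Irx5 body. Those of replicates 1 and 3 lay in the intron stretch shown above, and that of replicate 2 lay just before it, at chr8:92365226. A peak touched the Irx5 start only in replicate 1, at the percentile 75.7. The nearest peak lay 1.37 and 2.59 kb from that start in replicates 2 and 3. In replicate 3 a separate peak at the percentile 71.1 lay just upstream of the start (chr8:92349351-92355040) and was counted as a region of its own. Irx6, at the far end of the cluster, had a region over its start (chr8:92668990-92675735) at the lower percentiles of 63.2, 54.3 and 66.0.

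Further regions lay away from the start sites. Of the 12 chromosome 8 regions found in all replicates, 9 were more than 10 kb from any Irx start. Of all 18 regions, 11 overlapped no annotated gene. No share over all regions stands beside these counts. With 3 Irx starts in 1082 kb, most of the window is itself farther than 10 kb from a start. The third region by mean percentile stood 49.4 kb downstream of Irx3, towards Fto (chr8:91744749-91752630), at the percentiles 87.0, 86.1 and 85.9. The next one towards Fto (chr8:91710282-91717067) was at 85.7, 78.5 and 85.7, and its points of highest pileup agreed within 7 bp. Between Irx3 and Irx5, peaks covered 6.52%, 5.26% and 6.43% of 556 kb, in 11 regions of which 6 were found in all replicates. Between Irx5 and Irx6 they covered 3.04%, 4.04% and 5.04% of 298 kb, in 4 regions that were all found in every replicate. The 11 regions include those over the Irx3 and Irx5 starts, and the 4 include the one over the Irx6 start. The bases of these start regions that lie inside the intervals count towards the coverage. The corresponding intervals of chromosome 13 had 0.684%, 0.408% and 0.761% from Irx1 to Irx2 and 0.270%, 0.459% and 0.306% from Irx2 to Irx4. Each interval between chromosome 8 Irx genes was above each one between chromosome 13 Irx genes in all 3 replicates. This did not extend to the flanks. The 100 kb after Irx6 had 0%, 3.715% and 3.14%, and the 100 kb before Irx1 had 1.82%, 0% and 1.27%. The edges of the windows set part of this picture. Just outside the chromosome 8 window, 46.2 kb before it, lay an Fto region with a mean percentile of 91.2, whereas the nearest regions outside the chromosome 13 window lay 191 kb before it and 97.3 kb after it, at mean percentiles of 26.9 and 47.5. On its other side the chromosome 8 window had a region 16.1 kb beyond its edge that was found in 1 replicate, at the percentile 32.5.

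**Figure D3:**
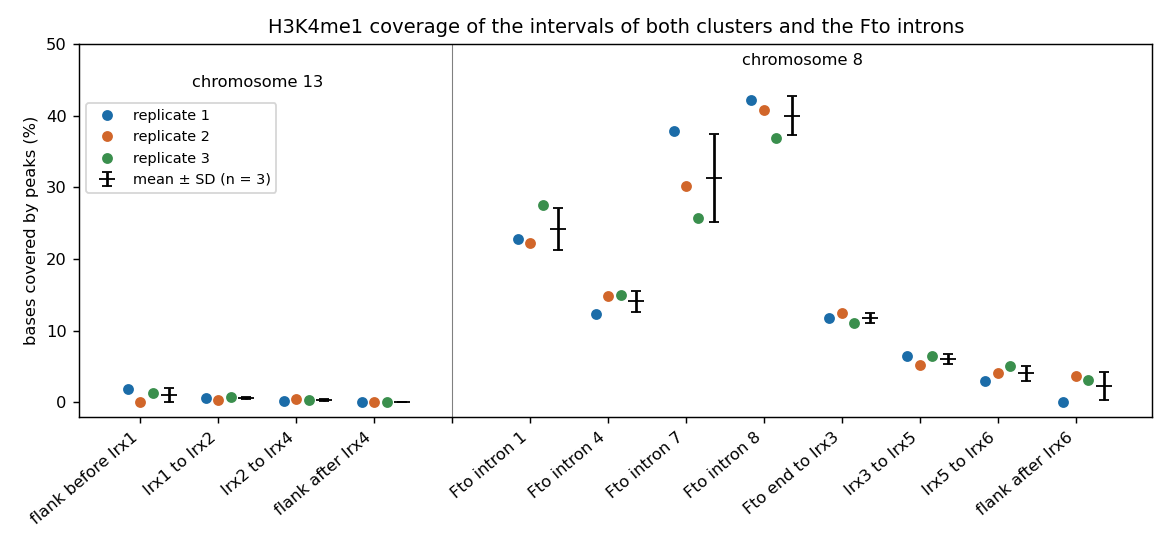
Share of bases covered by H3K4me1 peaks (%) in the intervals of each cluster and in the Fto introns that held a peak, by replicate (points) with the mean and SD (n = 3). The chromosome 13 intervals stay below 2%, the intervals between chromosome 8 Irx genes lie between 3.04% and 6.52%, and intron 8 of Fto lies between 36.9% and 42.2%.

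The Fto introns were more densely marked than either cluster. Peaks covered 27.9%, 26.6% and 25.9% of their 351 kb, a mean of 26.8% ± 1.04 (SD, n = 3). That was 3.78 ± 0.155 times the coverage of the chromosome 8 window and 11.4 ± 0.150 times that of the genome (SD, n = 3), above both in all 3 replicates. An exact two-sided sign-flip permutation test of the Fto introns against the chromosome 8 window gave p = 0.25, the smallest possible. The gene held 22, 21 and 19 peaks, with 0.187%, 0.188% and 0.205% of all peak signal. For the transcript with 9 exons, 4 of the 8 introns held peaks and the other 4 held none in any replicate. Intron 8, the last and longest with 143 kb, was covered to 42.2%, 40.9% and 36.9% and had 10 regions found in all replicates. Intron 1 had 22.8%, 22.3% and 27.6%, intron 4 had 12.4%, 14.9% and 15.0%, and intron 7 had 37.9%, 30.2% and 25.8%. Replicate 3 was thus the highest in intron 1 and the lowest in introns 7 and 8.

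The Fto region with the highest mean percentile lay in intron 1 (chr8:91371943-91385322) and measured 13380 bp. It stood at the percentiles 98.3, 97.5 and 99.2, above every region of both clusters in each replicate, and its highest pileup was 168, 149 and 102 fragments. It alone held 0.0338%, 0.0327% and 0.0426% of all peak signal, more than the whole chromosome 13 cluster with 0.0145%, 0.0134% and 0.0113%. In all, 4 of the 16 Fto regions found in every replicate had a mean percentile of 90 or more, against 2 of 12 on chromosome 8 and 0 of 3 on chromosome 13. The share at that level among all regions found in every replicate was not computed. The 16 regions lay 150 to 470 kb from the Irx3 start, with a median of 264 kb. The one closest to Irx3, in intron 8 (chr8:91644113-91652347), stood at 93.9, 88.6 and 91.1 and had the highest pileup of all Fto regions in replicates 1 and 2, at 178 and 172. The 130 kb from the end of Fto to Irx3 were covered to 11.8%, 12.5% and 11.1%. This was less than introns 1, 4, 7 and 8, which held peaks, and more than the intervals between the chromosome 8 Irx genes.

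**Figure D4:**
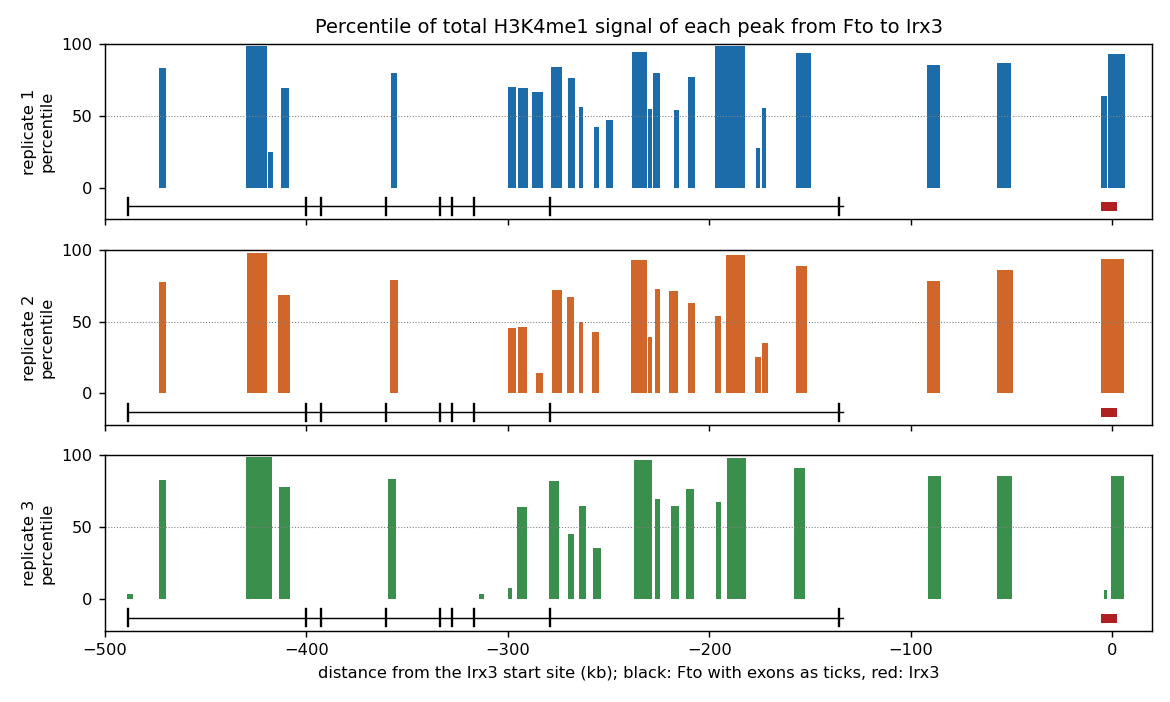
Percentile of total signal of each H3K4me1 peak (bar height) against its distance from the Irx3 start site in kb, from Fto to Irx3, with bar widths to scale and a panel for each replicate. The Fto transcript is drawn in black with exons as ticks and Irx3 in red, and the dotted line marks the 50th percentile. The strongest peaks of Fto, in introns 1 and 8, stand above the 90th percentile in all 3 replicates.

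Taken by gene, 5 of the 6 Iroquois genes had a peak over the body or within 5 kb of it in all 3 replicates, where 15.5% of protein-coding genes did, and Irx4 was the exception. As a level that does not depend on gene length, the share of bases covered within 100 kb on either side of the start site was used. None of these stretches overlapped between the 6 genes. Irx3 had 12.4%, 12.9% and 11.0%, the highest of the family, and its mean of 12.1% ± 0.956 (SD, n = 3) exceeded that of 94.3% of protein-coding genes. Irx5 followed with 7.60%, 6.50% and 7.65% and Irx6 with 4.16%, 6.73% and 8.01%. Irx3 was above Irx5 in all 3 replicates, whereas Irx5 was above Irx6 only in replicate 1, so that their order was within the spread. Irx1 had 2.53%, 1.47% and 2.16%, Irx4 had 2.05%, 1.49% and 0%, with a mean of 1.18% that became 0.745% without replicate 1, and Irx2 had 0.844%, 1.44% and 0.959%. The values of these 3 genes overlapped. The highest value of any chromosome 13 gene in any replicate, 2.53%, stayed below the lowest of any chromosome 8 gene, 4.16%. The median over all protein-coding genes was 0.798%, the upper quartile was 3.73%, and 41.8% of genes had a mean of 0%.

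In each pair of counterparts the chromosome 8 gene had the higher level in all 3 replicates. The difference was 10.1 percentage points ± 1.28 for Irx3 minus Irx1, 6.17 ± 0.959 for Irx5 minus Irx2 and 5.12 ± 2.95 for Irx6 minus Irx4 (SD, n = 3). The exact sign-flip p was 0.25 for each of the 3 pairs and stayed at 0.25 after Benjamini-Hochberg adjustment over them. The Irx6 minus Irx4 difference varied most, at 2.11, 5.25 and 8.01 percentage points in replicates 1, 2 and 3.

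Among 11 other TALE homeobox genes, 6, 7 and 6 had a peak over the body or within 5 kb in replicates 1, 2 and 3, and 5 had one in all of them. These were Meis1, Meis2, Pbx2, Pknox2 and Mkx. Pbx3 had one only in replicate 3, Pknox1 only in replicate 2, and Tgif2 in replicates 1 and 2. Their levels within 100 kb of the start ran from 0.916% to 19.3% with a median of 3.54%, and those of the Iroquois genes from 1.08% to 12.1% with a median of 4.18%. Of these 11 genes Pknox2 had the highest level. The ranges of the groups thus overlapped, with the chromosome 13 Iroquois genes at the lower end.

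**Figure D5:**
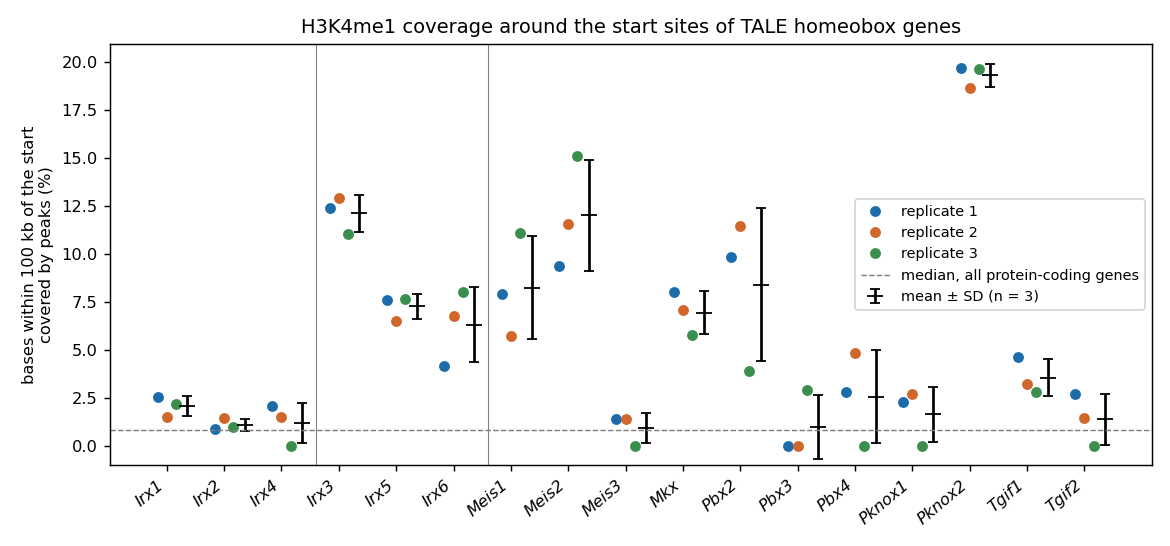
Share of bases within 100 kb of the start site covered by H3K4me1 peaks (%), for the 6 Iroquois genes and 11 other TALE homeobox genes, by replicate (points) with the mean and SD (n = 3). The dashed line is the median of all protein-coding genes, 0.798%. Irx3, Irx5 and Irx6 lie above Irx1, Irx2 and Irx4 in every replicate.

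The protein-coding genes outside both windows whose levels were most like the mean of the chromosome 13 genes, by Euclidean distance over the 3 replicates, were Sppl3, Aqp8 and Tmprss2, at distances of 0.0768, 0.109 and 0.204 percentage points. For the chromosome 8 genes they were Pcdhga8, Usp42 and Rnf150, at 0.249, 0.413 and 0.496.

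The regions were also described by base content, length and the position of highest pileup. Length is not independent of their choice, since total signal is summed over the bases of a peak. The median GC content of the regions found in all replicates was 52.0% on chromosome 13, 48.5% on chromosome 8 and 46.7% in Fto, against 47.3% in the genome. The Fto regions stayed between 43.8% and 49.1%, whereas the chromosome 8 regions reached 55.8% at the Irx3 start. Repeat-masked bases made up a median of 8.96%, 12.4% and 12.7%, against 15.8% in the genome. The median length was 3159, 5522 and 5022 bp, against 5003 bp. The points of highest pileup of the 3 replicates lay within 200 bp of each other in 1 of 3 chromosome 13 regions, 5 of 12 chromosome 8 regions and 2 of 16 Fto regions, where 32.2% of all regions found in every replicate did so.

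Short motifs were searched on both strands of the 200 bp windows around the points of highest pileup in replicate 1, for 8916 regions found in all replicates. ACANNTGT, a palindrome bound by Iroquois proteins, was found in 0 of 3 windows on chromosome 13, 0 of 12 on chromosome 8 and 1 of 16 in Fto, and in 7.99% of all windows. The match was in the Fto first intron stretch shown above, at positions 79 to 86 from its 5′ end. The palindrome contains the E-box motif, so every match to it overlaps an E-box. The E-box itself, CANNTG, was found in 2, 9 and 11 windows, and in 68.1% of all. CTTTGA, a core of the Tcf/Lef site, was found in 2 of 3 chromosome 13 windows, 0 of 12 chromosome 8 windows and 3 of 16 Fto windows, and in 11.3% of all. Both chromosome 13 matches are on the minus strand, at positions 32 to 37 of the Irx1 3′ side stretch and 27 to 32 of the Irx2 3′ side stretch. The Irx1 3′ side stretch lay outside the replicate 2 peak of its region. TAATTA, a homeodomain palindrome, was found in 0, 1 and 1 windows and in 2.29% of all, and GCCNNNGGC, an AP-2 motif, in 0, 3 and 3 windows and in 9.21% of all. With 3, 12 and 16 windows these counts are descriptions and say nothing of binding.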

How the data were processed

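CUT&Tag peak lists of 3 H3K4me1 samples from E12 whisker pads were used, and the 3 IgG samples were not analysed here. The authors called peaks per replicate with SEACR 1.3 in stringent mode, without IgG, keeping the top 1% of signal blocks. The submitters' processing notes also name Bowtie2 2.3, SAMtools 0.1.19, bedtools and mm10. The deposited lists give, per peak, the total signal and the maximum signal, both whole-number pileups not scaled to depth and so compared only as percentiles or shares within a replicate. The study states a common nominal sequencing depth, and the depth each library reached cannot be read from peak lists.

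Positions are 1-based, with genes from GENCODE vM21 and sequences from the RefSeq copy of GRCm38, where 0 peaks ran past a chromosome end. Python 3.11.15, NumPy 2.4.6 and matplotlib 3.10.9 were used, and the code was tested on simulated data. Coverage, peaks, signal and percentiles were computed per replicate and compared by exact sign-flip permutation. Genes and lists, which included the marker lists, were chosen with earlier results of these data known. By rule, the text names the Irx genes, Fto, genes of the windows that code for protein or start within 2 kb of an Irx start, TALE genes whose peaks differed between replicates, the 3 genes most like each cluster, the 3 strongest regions of each cluster, the region nearest each Irx start and the strongest of Fto. An item of the TALE list is not reported here. Other regions and genes were named after their values were seen. The alternatives were stricter lists, joined peaks, other flanks and windows, other overlaps, other measures of strength and leaving out each replicate.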

Additional observations from a re-analysis of the deposited data

How the results depend on the processing

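The clusters were compared within each replicate, and the sign-flip tests took these values as pairs. Between groups of samples, no paired analysis was possible because only the IgG samples share the replicate numbers, and these were not analysed here. Of 269 values recomputed under alternatives for 31 results, 209 moved by less than 1 SD between replicates or, for counts of regions and genes, stayed within 1.5 times the reported count. The other 60 moved by more, and 0 changed sign. All 44 differences between the clusters were higher on chromosome 8.

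The chromosome 13 values depended on weak peaks. With the strongest 10000 peaks of each list, its coverage was 0.457%, its peaks 1.32 per Mb, its signal share 0.00530% per Mb and its regions in all replicates 0, and with the stronger 50% of each list they were 0.112%, 0.221, 0.00118% and 0. Under the same settings chromosome 8 had a coverage of 6.50% and 5.96%, 13.2 and 11.4 peaks per Mb, a median percentile of 52.9 and 45.3 and, with the stronger 50%, a signal share of 0.118% per Mb. The Fto introns were covered to 25.4% and 22.2%, 3 Irx genes had a peak in all replicates under both, and 0 kidney markers did. These lists hold fewer peaks by construction, and no share over all protein-coding genes stands beside the gene counts. The chromosome 13 median percentile and its difference from chromosome 8 had no value under either setting, since a replicate was left without a chromosome 13 peak.

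Window edges moved the levels. Chromosome 8 coverage was 6.69% without flanks, 6.79% with 50 kb, 8.43% with 200 kb, 11.6% with Fto included and 7.12% with peaks under 1 kb apart joined. Its peaks were 18.2 per Mb with 200 kb flanks and 25.7 with Fto, and its signal share 0.138% and 0.209% per Mb. Chromosome 13 had 3.30 peaks per Mb without flanks, and a signal share per Mb of 0.00998% without flanks, 0.01002% with 200 kb and 0.0111% by maximum signal. Replicate 1 alone, an alternative chosen after seeing the data, gave a chromosome 13 coverage of 1.02%, 3.31 peaks per Mb and 3 kidney markers with a peak. Leaving out each replicate gave 1 to 3 kidney markers with a peak in all that remained, the 3 without replicate 3. These counts also have no share over all protein-coding genes beside them. Without replicate 3 the difference in median percentile was also smaller, at 22.6 in place of 34.3. The cause of these shifts was not tested.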
